A study of Homo sapiens with 18 samples.

Results

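MDM2 and MDM4, which hold the p53 protein in check, and 7 genes that p53 can switch on, CDKN1A, GADD45A, PMAIP1, PERP, PEG3, TP53I3 and SESN1, were followed in SK-N-MC cells exposed to the pesticide rotenone. The members are the 15 probe sets of 22283 on the array that the platform annotation assigns to 1 of these 9 genes and to no other gene, and every such probe set was taken. MDM2 had 5 of them, PMAIP1 and PEG3 had 2 each, and the other genes had 1 each. A further probe set, shared between PEG3 and ZIM2, was left out. Of the 15, 11 were tested because their signal reached 50 on 3 or more arrays; 4 MDM2 probe sets did not reach it. By gene, all 9 were tested, of 9162 genes in all.

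SK-N-MC is a single human tumor line, called neuroepithelioma in the sample labels and neuroblastoma in the study. The cells were grown without pyruvate, which shields cells from complex I inhibitors, and received 0.05% ethanol as vehicle (the 0 nM groups), 5 nM rotenone, a dose the labels call non-lethal and the study marginally toxic, or 50 nM rotenone, a dose given as killing some cells. Exposure lasted 1 week or 4 weeks, and the groups are named 1w0nM, 1w5nM, 1w50nM, 4w0nM, 4w5nM and 4w50nM. Each group has 3 Affymetrix human genome arrays from 3 experiments, and each array carries RNA of 5 pooled dishes, so the spread between arrays is a spread between pools. In bulk RNA, a loss of cells that express a gene and less of its RNA in each cell cannot be told apart.

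Of the 8 genes listed as markers of neuroepithelioma, the 6 with a probe set all passed the filter, with mean signals from 1143 for JAKMIP2 to 2949 for CD99, and their summed signal was 7983 to 15090 in 1w0nM, 12620 to 13430 in 1w5nM, 11790 to 12690 in 1w50nM, 13170 to 13890 in 4w0nM, 13070 to 15560 in 4w5nM and 8783 to 10880 in 4w50nM. The 4w50nM sums were thus below those of 4w0nM. Of the 6 markers 3 were called lower and 0 higher, beside 17.6% and 23.3% of all genes. Of 7 measured markers of sympathetic neuroblastoma 4 passed the filter, GATA2, GATA3, CHGA and DBH, with mean signals of 652, 167, 47.5 and 45.9, and TH, PHOX2A and HAND2 did not exceed 19.9, 30.1 and 20.1. Of 12 fibroblast markers 11 passed the filter, and their summed signal was 4192 to 4606 in 1w0nM, 6639 to 6918 in 1w5nM, 6324 to 6811 in 1w50nM, 6546 to 6720 in 4w0nM, 4488 to 5261 in 4w5nM and 4507 to 4956 in 4w50nM. This sum was low in 1w0nM and in both treated 4-week groups and high in the other groups. At 1 week 5 of 11 were called higher at either dose. Of all genes, 6.48% (5 nM) and 20.4% (50 nM) were called there in either direction. At 4 weeks 5 of 11 were called lower at either dose, beside 14.1% (5 nM) and 17.6% (50 nM) of all genes. A further marker, 1 of the 11, was higher with 5 nM at 4 weeks. The array 1w0nM replicate 3 stood apart, since its correlation with the other arrays was at most 0.939, while the other arrays each had a partner at 0.966 or above. The arrays 1w5nM replicate 1 and 1w5nM replicate 3 correlated best with 4w0nM arrays (0.989 and 0.991). With the 4w0nM arrays as vehicle, 0% of all probe sets were called with 5 nM at 1 week, in place of 6.67%. With 50 nM at 1 week the share was 5.65%, in place of 21.8%. The spiked hybridization controls had a mean log2 signal of 8.69 to 9.10 on the 6 arrays of 4w5nM and 4w50nM. On the other 12, the 4w0nM arrays among them, it was 9.69 to 10.1. In the comparisons with vehicle at 4 weeks, this shift and rotenone cannot be told apart. The part of these shifts in the results for the genes below was not tested.

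The p53 protein is a transcription factor that is made and destroyed continuously in unstressed cells. MDM2 is the ubiquitin ligase that marks it for destruction, MDM4 binds it and blocks its activity, and MDM2 is itself a p53 target, which closes a negative feedback loop. When DNA damage or metabolic stress frees p53, it can switch on genes that stop the cell cycle, repair DNA, limit oxidative stress or start apoptosis, the last through mitochondria.

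The upstream sequences of the member genes show where the letters recognized by p53 lie near a start site. RefSeq start sites on GRCh38.p14 gave 12 windows for 7 of the 9 genes, and none was given for GADD45A and PEG3. A window ran from 250 bases before the start site to 50 bases after it. Each window was searched for 20 bases resembling the p53 response element, a pair of 10-base half-sites without a spacer, which reads alike on both strands; the core cytosine and guanine of each half-site had to be present. For the 3 genes with the closest matches, the upstream part of 1 window each is printed 5′ to 3′ along the gene, with the matching 20 bases in capitals. Another MDM2 window, which overlaps the one printed, holds the same match. MDM2 (an internal start, chr12:68808767-68809016, plus strand), SESN1 (an internal start, chr6:109008989-109009238, minus strand) and PMAIP1 (chr18:59899746-59899995, plus strand) are the genes shown, each with 250 bases that end at the start site.
MDM2: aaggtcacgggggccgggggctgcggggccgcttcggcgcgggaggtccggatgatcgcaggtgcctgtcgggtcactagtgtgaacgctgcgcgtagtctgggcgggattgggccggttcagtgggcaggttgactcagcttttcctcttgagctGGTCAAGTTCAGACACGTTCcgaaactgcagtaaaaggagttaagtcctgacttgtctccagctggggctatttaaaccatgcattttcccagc
SESN1: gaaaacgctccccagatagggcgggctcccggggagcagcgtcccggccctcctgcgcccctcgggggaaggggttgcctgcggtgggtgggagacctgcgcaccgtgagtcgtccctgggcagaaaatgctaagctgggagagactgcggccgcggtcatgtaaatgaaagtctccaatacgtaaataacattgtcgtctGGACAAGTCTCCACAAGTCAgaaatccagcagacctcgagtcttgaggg
PMAIP1: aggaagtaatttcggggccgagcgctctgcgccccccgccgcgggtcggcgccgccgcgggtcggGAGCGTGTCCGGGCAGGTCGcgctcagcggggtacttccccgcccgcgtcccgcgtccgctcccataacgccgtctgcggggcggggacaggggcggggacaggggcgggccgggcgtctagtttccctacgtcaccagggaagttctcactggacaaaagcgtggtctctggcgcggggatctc
The MDM2 match departs from the consensus at 2 positions and begins 94 bases before the start, and 0.285% of 35116 RefSeq windows of the full length searched hold a match as good. The SESN1 and PMAIP1 matches depart at 3 positions, begin 49 and 185 bases before their starts, and are equalled in 1.12% of windows. In CDKN1A, MDM4 and PERP the best match departs at 5 positions, which 11.5% of windows equal. Such a match describes letters and is not evidence that p53 binds there, and a window without one says nothing about more distant sites.

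After 4 weeks with 50 nM rotenone, MDM2, MDM4, GADD45A, 1 of the 2 PMAIP1 probe sets, both PEG3 probe sets and SESN1 were higher than in vehicle-treated cells, while PERP, CDKN1A and TP53I3 did not pass the test. With 5 nM for 4 weeks, MDM2, PMAIP1 and PERP were higher and 1 of the PEG3 probe sets was lower. After 1 week, PMAIP1 was lower with 50 nM, and with 5 nM no member passed. A probe set is called where limma, fitted to all 18 arrays and 13711 probe sets, gave an adjusted p (Benjamini and Hochberg) below 0.05 on log2 signals, with signals under 16 set to 16. The counts were 0 of 11 member probe sets with 5 nM at 1 week, where 6.67% of all probe sets were called and 1 member had an unadjusted p below 0.05. With 50 nM at 1 week, 2 of 11 were called, both lower, beside 21.8% of all probe sets and 13.6% that were lower. At 4 weeks 5 of 11 were called with 5 nM, 4 higher and 1 lower, beside 32.4% (18.3% higher and 14.1% lower), and 7 of 11 with 50 nM, all 7 higher, beside 41% of all probe sets and 22.9% that were higher. For PMAIP1 and PEG3, the first and the second probe set are named in the order in which the plots list them with their IDs. MDM4 and the second PEG3 probe set reached the filter on arrays of treated 4-week cells alone, so their pass and their rise are not separate facts. Without them the 4-week counts were 4 of 9 with 5 nM and 5 of 9 with 50 nM, all higher. The study also lists PMAIP1, PERP, PEG3 and GADD45A as changed on these same samples, so the counts are no independent evidence of direction.

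**Figure D1:**
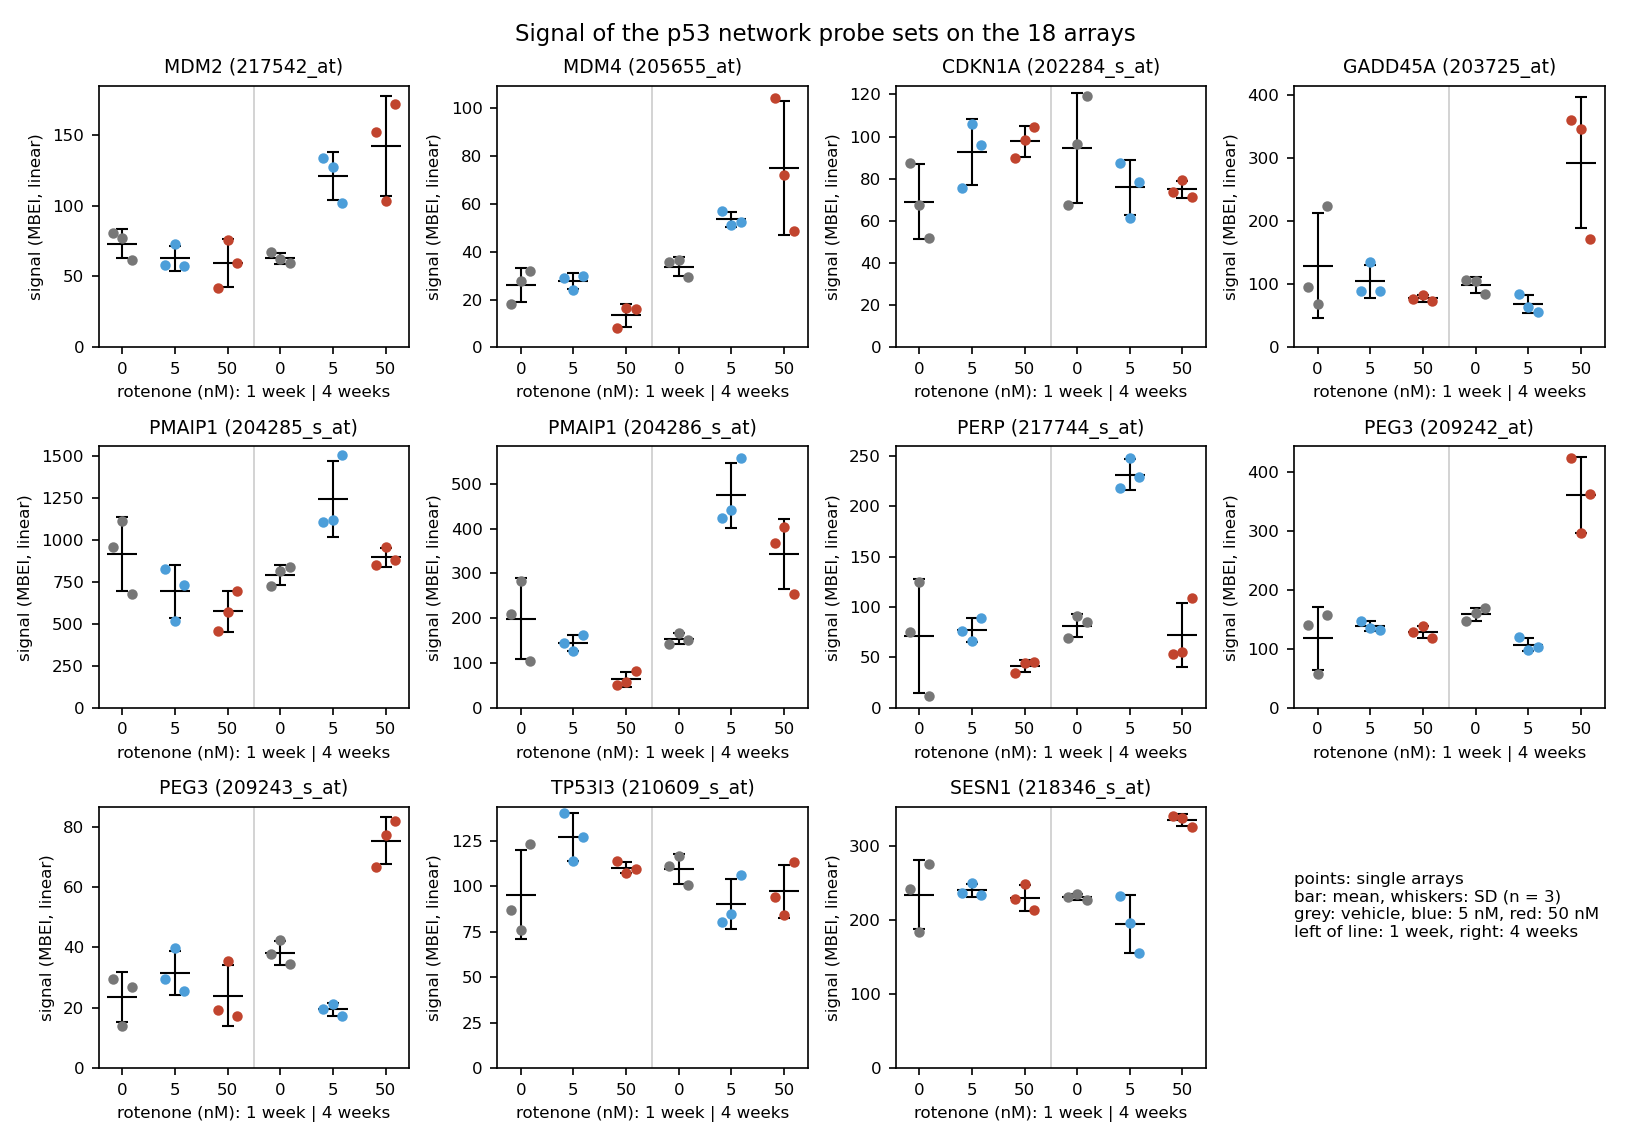
Deposited signal (model-based expression index, linear scale) of the 11 probe sets tested, plotted against rotenone dose at 1 week (left of the line) and 4 weeks (right). Points are single arrays, and bars show the mean ± SD of 3 arrays. MDM2 is above the vehicle arrays at both doses at 4 weeks, PERP peaks in 4w5nM and GADD45A, PEG3 and SESN1 peak in 4w50nM.

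MDM2 is read from the single probe set of the 5 that passed the filter. Its signal was 67.2, 62.0 and 59.6 on the 4w0nM arrays, 133.24, 127 and 102 on 4w5nM and 152, 103 and 171 on 4w50nM. All 6 treated arrays lay above all 3 vehicle arrays at 4 weeks. The log2 fold change was 0.93 ± 0.215 (SE) with 5 nM (limma adjusted p = 0.00325) and 1.15 ± 0.215 (SE) with 50 nM (adjusted p = 0.000474), or 1.91-fold and 2.21-fold. The doses did not differ by the same test at 4 weeks, with a log2 difference of 0.21 (95% interval -0.24 to 0.67). At 1 week the signals were 80.5, 77.0 and 61.4 with vehicle, 58.0, 73.0 and 57.4 with 5 nM and 42.0, 75.8 and 59.8 with 50 nM. Those 3 groups overlapped, and the log2 changes of -0.22 and -0.33 were not called.

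The other 4 MDM2 probe sets were dim on every array, with highest signals between 25.4 and 39.3. For 1 of them the 4w50nM signals of 17.4, 26.7 and 25.6 exceeded those of 4w0nM, which were 13.1, 11.3 and 11.9, all under the floor of 16. Without the filter this probe set was called in limma (adjusted p = 0.00766), and the remaining 3 were not called at 4 weeks. Those 3 had lower means in 4w50nM, at 17.2, 14.8 and 4.02, than in 4w0nM, at 20.9, 18.4 and 7.61.

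MDM4 has 1 probe set, with signals of 35.7, 36.5 and 29.3 in 4w0nM, 56.9, 51.2 and 52.5 in 4w5nM and 105, 72.3 and 48.7 in 4w50nM, so that the treated arrays lay above the vehicle arrays without overlap. The log2 fold change was 1.09 ± 0.253 (SE) with 50 nM (limma adjusted p = 0.0024) and 0.67 ± 0.253 (SE) with 5 nM, just outside the threshold (adjusted p = 0.0513) and inside it under 7 of the other settings. At 1 week the 50 nM signals of 7.94, 16.5 and 15.9 lay below the vehicle signals of 18.1, 27.7 and 31.99. In this comparison 2 of the 3 treated arrays are under the floor, so the log2 change of -0.64 understates the gap, and it was not called (adjusted p = 0.0786).

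CDKN1A encodes p21, the inhibitor of cyclin-dependent kinases through which p53 halts cells in G1. Its signals ranged from 52.0 to 119 over all 18 arrays. They were 67.4, 96.5 and 119 in 4w0nM, 87.5, 61.6 and 78.5 in 4w5nM and 73.9, 79.2 and 71.6 in 4w50nM. The groups overlapped, and the log2 changes were -0.29 (95% interval -0.74 to 0.16) with 5 nM and -0.30 (-0.75 to 0.16) with 50 nM. At 1 week the 50 nM arrays, at 90.1, 98.4 and 105, were above the vehicle arrays, at 87.5, 67.5 and 52.0, and the log2 change of 0.53 was not called (limma adjusted p = 0.0844).

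GADD45A encodes a small stress protein that binds cell cycle kinases and acts at the G2 checkpoint. Its signals at 4 weeks were 107, 104 and 84.7 with vehicle, 84.0, 63.3 and 56.6 with 5 nM and 359.7, 345 and 172 with 50 nM. The 50 nM arrays were the highest and the 5 nM arrays the lowest of the 3 groups, with no overlap. The log2 fold change was 1.499 ± 0.338 (SE) with 50 nM (limma adjusted p = 0.00196), a rise of 2.83-fold, and -0.55 ± 0.338 (SE) with 5 nM, which was not called (adjusted p = 0.223). The 50 nM arrays were 4.14-fold above the 5 nM arrays, a log2 difference of 2.05 (adjusted p = 0.000891). At 1 week the vehicle signals spread over 95.5, 68.5 and 224, the last being the array that stood apart, and no dose was called.

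PMAIP1 encodes Noxa, a BH3-only protein that promotes apoptosis at the mitochondrion by binding MCL1. It has a pair of probe sets, and the first ranged from 456 to 1502 over the arrays. The second had signals of 143, 168 and 151 in 4w0nM, 425, 441 and 558 in 4w5nM and 369, 404 and 255 in 4w50nM. Both treated groups lay above the vehicle arrays. The log2 fold change was 1.62 ± 0.278 (SE) with 5 nM (limma adjusted p = 0.000359) and 1.13 ± 0.278 (SE) with 50 nM (adjusted p = 0.00367), or 3.07-fold and 2.19-fold. For the first probe set the values were smaller, 0.64 (adjusted p = 0.0209) with 5 nM and 0.18 (adjusted p = 0.504) with 50 nM, so the probe sets differ on the 50 nM call.

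At 1 week PMAIP1 moved the other way. The signals of the second probe set were 209, 284 and 104 with vehicle, 145, 127 and 162 with 5 nM and 50.4, 58.0 and 81.5 with 50 nM. The 50 nM arrays lay below all vehicle arrays, a log2 change of -1.56 ± 0.278 (SE) (limma adjusted p = 0.00111), and for the first probe set the change was -0.66 (adjusted p = 0.0248). Without the vehicle array that stood apart, the 50 nM changes were -1.98 and -0.86, and PMAIP1 was also called lower with 5 nM, by -0.76 for the second probe set (adjusted p = 0.0286) and -0.60 for the first (adjusted p = 0.0475). The calls of the second probe set at 50 nM were lost where the fit held only the compared groups (adjusted p = 0.0561) and in the methods' t-test (adjusted p = 0.19).

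PERP encodes a membrane protein of cell junctions that takes part in p53-dependent apoptosis. At 4 weeks its signals were 69.4, 90.7 and 84.7 with vehicle, 218, 247 and 228 with 5 nM and 53.01, 55.4 and 109 with 50 nM. The 5 nM arrays stood above every other array of the series, and the 50 nM and vehicle arrays overlapped. PERP changed by a log2 of 1.51 ± 0.477 (SE) with 5 nM (limma adjusted p = 0.0216), a 2.85-fold rise, and -0.25 with 50 nM (95% interval -1.25 to 0.76). Between the doses the log2 difference was -1.76 (adjusted p = 0.0174), lower with 50 nM.

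The PERP signals of the vehicle arrays at 1 week were spread widely, at 75.5, 125 and 12. The lowest of them is the array that stood apart. The 1w50nM signals of 34.8, 44.3 and 45.3 were not called lower with it, and without it the log2 change was -1.24 (limma adjusted p = 0.00151). The 4-week call with 5 nM ended without 4w0nM replicate 1 (adjusted p = 0.0718), 4w0nM replicate 3 (0.0514) or 4w5nM replicate 2 (0.0566). The call between the doses ended without 4w5nM replicate 2 (adjusted p = 0.0593), 4w50nM replicate 1 (0.0855) or 4w50nM replicate 2 (0.0754). The SE in these fits is drawn from all groups, so it includes the wide spread of the 1-week vehicle arrays. Neither of these 4-week comparisons was refitted without 1w0nM replicate 3.

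PEG3 is an imprinted gene, expressed from the paternal copy, whose zinc finger protein has been described as a link between p53 and cell death in neurons. The first probe set had signals of 147, 161 and 169 in 4w0nM, 119.6, 98.8 and 102 in 4w5nM and 424, 296 and 363 in 4w50nM. The 50 nM arrays were highest, the vehicle arrays between and the 5 nM arrays lowest, without overlap. This is a log2 change of 1.17 ± 0.256 (SE) with 50 nM (limma adjusted p = 0.00157) and -0.57 ± 0.256 (SE) with 5 nM (adjusted p = 0.0946, not called). For the second, with signals of 37.8, 42.4 and 34.6, 19.7, 21.4 and 17.4 and 66.7, 77.3 and 81.9 in the same order of groups, both doses were called, -0.97 with 5 nM (adjusted p = 0.0125) and 0.98 with 50 nM (adjusted p = 0.00957). The order of the 3 groups was the same in both probe sets. The second passed the filter through its 4w50nM arrays alone, so its high signal there is no separate evidence. The 5 nM call of the second PEG3 probe set was lost with a floor of 32 (adjusted p = 0.176), since its 5 nM signals are all under that floor.

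TP53I3 encodes a quinone oxidoreductase linked to reactive oxygen species. Its signals lay between 76.2 and 140.1 on all arrays, at 111, 117 and 101 in 4w0nM, 80.2, 84.8 and 106 in 4w5nM and 93.9, 84.4 and 113 in 4w50nM. The groups overlapped, and the log2 changes of -0.29 and -0.18 were not called. At 1 week the log2 change was 0.44 with 5 nM (limma adjusted p = 0.13) and 0.24 with 50 nM (adjusted p = 0.335). Without the vehicle array that stood apart they were 0.64 (adjusted p = 0.0152) and 0.44 (adjusted p = 0.0381), both called higher. Those calls rest on the other vehicle arrays of 1w0nM, at 86.9 and 76.2. The mean signal was 127 in 1w5nM and 110.2 in 1w50nM, beside 109.5 in the vehicle group 4w0nM.

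SESN1 encodes sestrin 1, a stress protein that restrains mTORC1 and helps to renew peroxiredoxins. Its signals were 232, 236 and 227 in 4w0nM, 233, 196 and 155 in 4w5nM and 341, 338 and 325 in 4w50nM. The 50 nM arrays were higher than all others of the series, and the 5 nM and vehicle arrays overlapped. SESN1 changed by a log2 of 0.53 ± 0.154 (SE) with 50 nM (limma adjusted p = 0.0106), or 1.45-fold, and -0.27 with 5 nM (adjusted p = 0.187). Quantile normalization left the 50 nM call just outside the threshold, with a log2 change of 0.42 (adjusted p = 0.0691). At 1 week SESN1 stayed within 184 and 276 in all groups, and no dose was called.

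**Figure D2:**
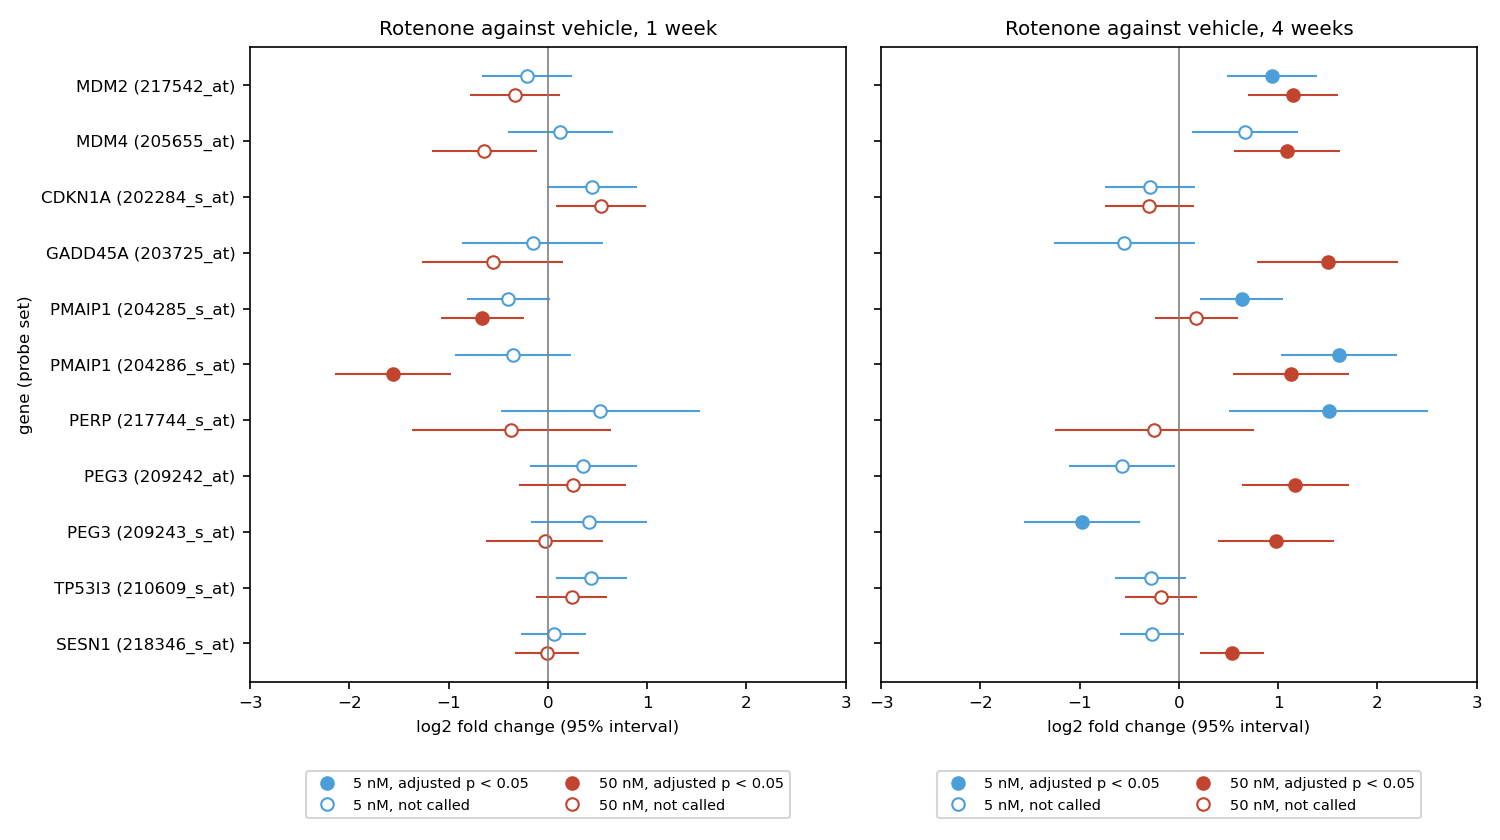
Log2 fold change of each probe set against the vehicle of its week, with 95% intervals, at 1 week (left) and 4 weeks (right); blue is 5 nM, red is 50 nM, and filled circles mark an adjusted p below 0.05. At 1 week PMAIP1 is the gene with filled circles, and at 4 weeks PERP is called with 5 nM while GADD45A, MDM4 and SESN1 are called with 50 nM.

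The doses were then set against each other. At 4 weeks, 5 of 11 probe sets were called, beside 16.6% of all probe sets (9.53% higher and 7.07% lower with 50 nM): GADD45A, SESN1 and both PEG3 probe sets were higher with 50 nM than with 5 nM, and PERP was lower. Without MDM4 and the second PEG3 probe set, which passed the filter only where they are high, it was 4 of 9. SESN1 differed by 0.80 on the log2 scale (limma adjusted p = 0.00231), and PEG3 by 1.75 (adjusted p = 0.000533) and 1.95 (adjusted p = 0.000468). For the second PMAIP1 probe set the difference was -0.49 (95% interval -1.07 to 0.10), for MDM4 0.42 (-0.11 to 0.96) and for CDKN1A -0.004545 (-0.46 to 0.45), and none of these was called. The first PMAIP1 probe set differed by -0.46 (-0.88 to -0.04), an interval that leaves out 0, and was not called (adjusted p = 0.127). At 1 week 0 of 11 were called by limma, beside 0.00729% of all probe sets, and 2 members, the second PMAIP1 probe set and MDM4, had an unadjusted p below 0.05.

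**Figure D3:**
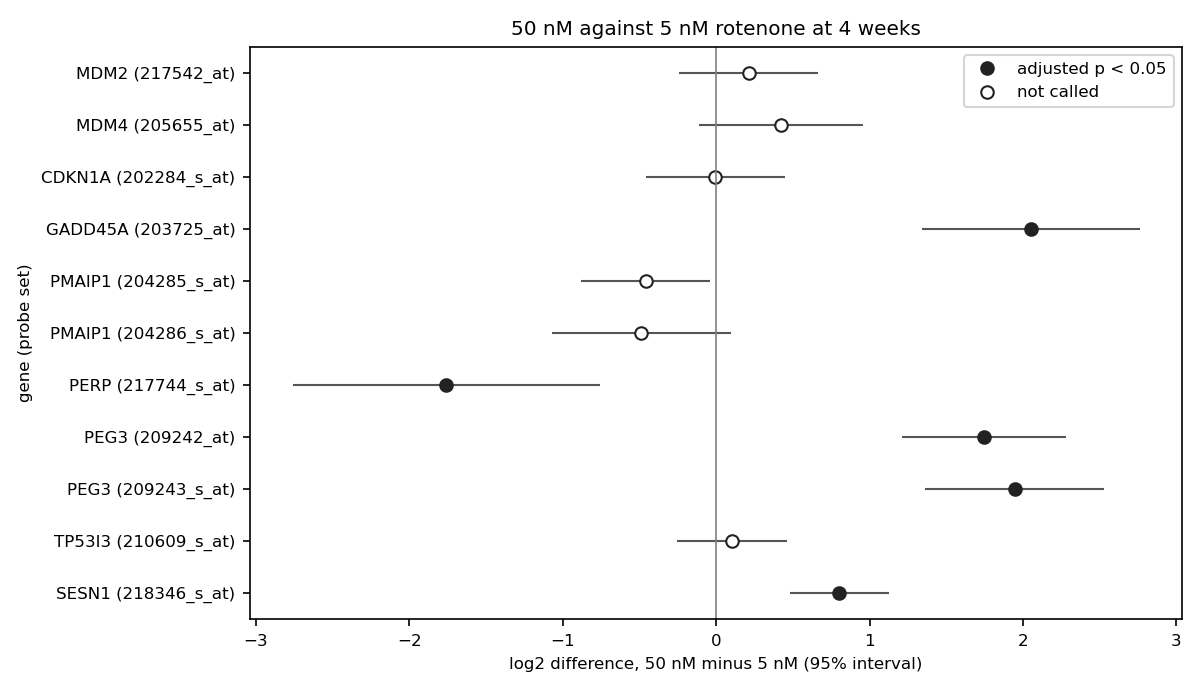
Log2 difference between 50 nM and 5 nM rotenone at 4 weeks for each probe set, with 95% intervals; filled circles have an adjusted p below 0.05. GADD45A, both PEG3 probe sets and SESN1 lie to the right (higher with 50 nM), PERP lies to the left, and CDKN1A sits at 0.

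The vehicle groups were compared between the weeks, where time in culture and the shift of the 1w0nM arrays described above cannot be told apart. Between 4w0nM and 1w0nM, 0 of 11 member probe sets were called by limma, beside 3.26% of all probe sets, and the 2 PEG3 probe sets had an unadjusted p below 0.05, with log2 differences of 0.55 and 0.71. The difference in the dose effect between 4 weeks and 1 week was called for 5 of 11 probe sets with 5 nM (32.3% of all probe sets) and for 8 of 11 with 50 nM (45.2%). Without the pair that passed the filter only where they are high, the counts were 4 of 9 and 6 of 9. The largest of them was the second PMAIP1 probe set with 50 nM, at 2.69 ± 0.393 (SE) on the log2 scale (adjusted p = 3.84e-05), which was lower than vehicle at 1 week and higher at 4 weeks. MDM2 differed by 1.15 ± 0.305 (SE) with 5 nM (adjusted p = 0.00852) and by 1.48 ± 0.305 (SE) with 50 nM (adjusted p = 0.00082). GADD45A differed by 2.05 ± 0.478 (SE) with 50 nM (adjusted p = 0.00213). For PERP the difference with 5 nM was 0.98 (95% interval -0.44 to 2.40) and was not called. Without the vehicle array that stood apart, on which PERP lies under the floor, it was 1.85 (adjusted p = 0.000432), and the PERP difference with 50 nM, at 0.12 with all arrays, was 0.99 (adjusted p = 0.0254). Leaving out that array also ended the 50 nM calls of CDKN1A (adjusted p = 0.0721) and of the first (0.102) and the second (0.0785) PEG3 probe set. Then 7 of 11 probe sets were called at either dose, beside 41.3% (5 nM) and 51% (50 nM) of all probe sets.

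Other genes of the p53 pathway were read from 6 lists of regulators and targets, 83 genes of which 64 were measured, each by its brightest probe set. Here 4 genes were called with 5 nM and 9 with 50 nM at 1 week (6.25% and 14.1% of the 64, beside 6.48% and 20.4% of all 9162 genes), and 19 and 24 at 4 weeks (29.7% and 37.5%, beside 32.6% and 40.9%). These shares are near those of all genes. The median log2 change of the 64 at 4 weeks was -0.0181 with 5 nM and 0.0438 with 50 nM, beside 0.0279 and 0.0167 over all genes.

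Of 19 regulators of p53 at 4 weeks, 9 were called higher, 2 lower and 8 neither with 5 nM. With 50 nM, 7 were called higher, 2 lower and 10 neither. The list medians were 0.347 and 0.207. Of all genes, 18.5% were higher and 14.1% lower with 5 nM, and 23.3% and 17.6% with 50 nM. The lists were chosen with earlier results of these data known. The study also gives ATR and EP300 as raised, so these counts are no independent evidence of direction. ATR, the kinase that responds to replication stress, rose from 347 ± 12.4 (mean ± SD, n = 3) in 4w0nM to 751 ± 36.6 with 5 nM and 774 ± 171 with 50 nM. The acetyltransferase EP300 rose by 1.05 and 0.94 on the log2 scale, the ubiquitin ligase RCHY1 by 0.84 and 0.88, and the deacetylase SIRT1 by 0.90 and 0.95, in limma with adjusted p from 3.35e-05 to 0.00148. At 1 week with 50 nM, RCHY1, SIRT1, ATR and the phosphatase PPM1D were lower, by -0.80, -0.95, -0.47 and -0.80. RCHY1 also fell between the vehicle groups, from 954 ± 85.1 in 1w0nM to 672 ± 35.6 in 4w0nM (adjusted p = 0.0271).

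Targets in apoptosis gave 2 lower and 0 higher of 12 at either dose at 4 weeks, close to the 14.1% and 17.6% of all genes that were lower. FAS, a death receptor, fell from 78.8 ± 6.08 to 55.0 ± 4.74 with 5 nM and 36.7 ± 0.855 with 50 nM (limma adjusted p = 0.00844 and 1.72e-05), and BCL2L11, the BH3-only protein Bim, changed by -0.50 and -0.53. Of 10 targets in arrest and feedback, TP53TG5, with 1 array of 4w5nM under the floor, was lower at both doses, by -2.13 and -1.56, and with 50 nM CCNG1 (1.25), PLK3 (0.82) and SFN (0.58) were higher. Of this list 10% was called with 5 nM and 40% with 50 nM, beside 32.6% and 40.9% of all genes. Among 7 repair targets 3 were lower at both doses, beside the same 14.1% and 17.6%, POLH (-1.04 and -1.04), FANCC (-0.50 and -0.59) and DDB2 (-0.58 and -0.36), and XPC was higher with 50 nM (0.43). FAS, POLH and GTSE1 (below) were read from probe sets of a kind that can pick up related transcripts (names ending in _x_at). The study describes TP53TG5, ATR, EP300 and CCNG1 as changed on these samples too. It also gives GTSE1, TP53I11 and TNFRSF10B as lower with 50 nM. Read from their brightest probe sets at 4 weeks, these changed by -0.29, -0.06 and -0.67 and were not called (limma adjusted p = 0.29, 0.786 and 0.087). The study chose 1 probe set per gene by another rule and required a change above 2-fold, so its values may come from other probe sets.

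Of 9 redox and metabolic targets, catalase (CAT) was higher with 50 nM at 4 weeks, from 382 ± 13.7 to 651 ± 25.8 (limma adjusted p = 0.00018), FUCA1, a lysosomal fucosidase, was lower (-0.68), and GPX1, glutathione peroxidase, was lower with 5 nM (-0.52). Of 7 secreted and surface targets, the cytokine LIF was lower at both doses (-1.25 and -0.97), and with 50 nM EPHA2 was lower (-0.53) and IGFBP3 higher (1.17). At 4 weeks the redox and metabolic list had 11.1% (5 nM) and 22.2% (50 nM) called. The secreted and surface list had 14.3% and 42.9%, beside 32.6% and 40.9% of all genes. Of these 4-week calls, those of GPX1 and BCL2L11 with 5 nM were each lost under 8 of the other settings, DDB2 with 50 nM under 7, XPC under 6, BCL2L11 with 50 nM under 5, FANCC with 5 nM under 4 and EPHA2 under 3. FANCC with 50 nM, IGFBP3 and LIF at each dose were lost under 1. At 1 week PIDD1, a death domain protein, was higher at both doses (0.82 and 0.85 on the log2 scale), as was DRAM1, an autophagy protein (1.05 and 0.74). ALDH4A1 (0.78) was higher with 5 nM, and PRKAB1 (0.51) and FAS (0.41) were higher and CCNG1 (-0.68) lower with 50 nM. RCHY1 was lower with 5 nM at 1 week as well (-0.59). Each of these 1-week calls, and those of the regulators, was lost under 2 or more of the other settings, and DRAM1 with 50 nM turned to -0.227 when the 4w0nM arrays served as vehicle. DRAM1 and PRKAB1 were also called between the vehicle groups. They were higher in 4w0nM than in 1w0nM by 0.97 (limma adjusted p = 0.0262) and 0.47 (adjusted p = 0.0439).

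**Figure D4:**
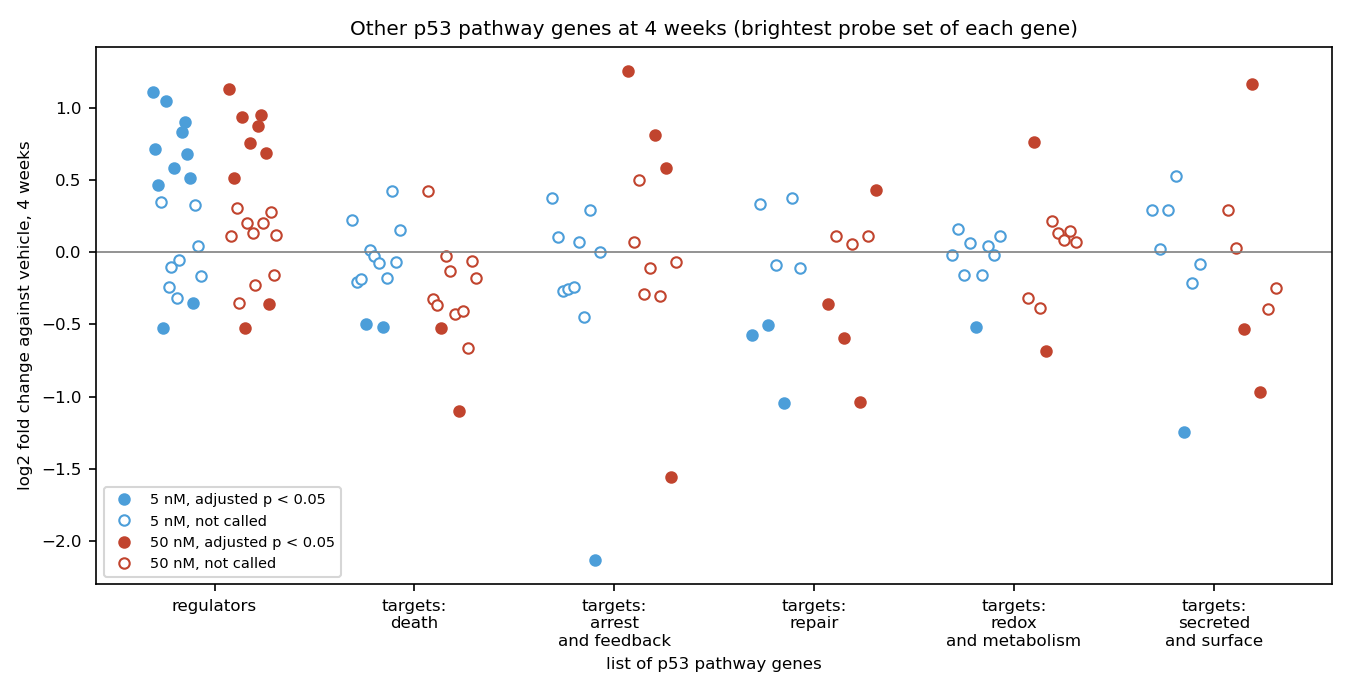
Log2 fold change at 4 weeks of the 64 other p53 pathway genes by list, 5 nM in blue and 50 nM in red, each point being the brightest probe set of a gene and filled points having an adjusted p below 0.05. Filled points of the regulators lie mostly above 0, and the 2 filled points of the apoptosis targets at each dose lie below it.

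Likeness over the 18 arrays was described by Pearson's r on log2 signals. SESN1 and GADD45A had r = 0.899, SESN1 and PEG3 0.882, PEG3 and GADD45A 0.826, MDM4 and MDM2 0.749, and PERP and PMAIP1 0.743. These values share the 6 groups and are not tested. The 2 PMAIP1 probe sets had r = 0.892 and the 2 PEG3 probe sets 0.897. Outside the members, the gene with the closest pattern of 13700 probe sets was MCM9 for MDM2 (0.959), DNAJC10 for MDM4 (0.948), EMCN for GADD45A (0.973), G3BP2 for PMAIP1 (0.967), FDX1 for PERP (0.982), BCHE for PEG3 (0.963) and RAI14 for SESN1 (0.956). For CDKN1A and TP53I3 the closest were SIPA1 (0.788) and TRIM62 (0.85).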

How the data were processed

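Total RNA was extracted with Trizol, and biotinylated cRNA was hybridized to Affymetrix human genome arrays, one per sample. The deposited intensities are linear model-based expression indexes that the authors computed in dChip after normalizing the arrays; which normalization, and which dChip version, is not given in the sources used here. They lay between 0.46 and 11258.4, and array medians between 87.0 and 102. The number of arrays, 3 in each of 6 groups, limits the precision.

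Of 22283 probe sets, 19071 have a single gene in the platform annotation, 1043 several and 2169 none. Signals were used as deposited, floored at 16 and taken as log2, so fold changes near the floor are understated. Probe sets that reached 50 on 3 or more arrays (13711, for 9162 genes) were fitted in limma 3.58.1 (R 4.3.3) with a mean per group and an intensity trend, for 9 comparisons, and adjusted by Benjamini and Hochberg within each. The test was checked on simulated data. Genes of the 6 pathway lists were named by rule, up to 4 called genes of a list in each comparison with vehicle, those with the largest change. The members and lists were chosen with earlier results of these data known. Alternatives were another floor, a started log, quantile normalization, median scaling, no filter, the brightest probe set of a gene, array weights, a replicate block, only the compared groups, the methods' t-test, the 4w0nM arrays as vehicle and leaving arrays out. Figures were drawn with matplotlib 3.10.9 in Python 3.11.15.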

Additional observations from a re-analysis of the deposited data

Results flagged for a closer look

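The effect of a dose differed between 4 weeks and 1 week, by the limma test of that difference, for 13 combinations of probe set and dose. These are 5 of 11 probe sets with 5 nM and 8 of 11 with 50 nM, beside 32.3% and 45.2% of all probe sets. MDM4 and the second PEG3 probe set passed the filter on treated 4-week arrays alone, so their differences are no separate evidence. All values are log2 differences, the 4-week effect minus the 1-week effect. With 5 nM the difference was 1.03 for the first PMAIP1 probe set and 1.97 for the second. It was 1.15 for MDM2, -1.39 for the second PEG3 probe set and -0.72 for TP53I3. With 50 nM it was 0.84 and 2.69 for the same PMAIP1 probe sets, 2.05 for GADD45A, 1.73 for MDM4 and 1.48 for MDM2. The 2 PEG3 probe sets differed by 0.92 (the first) and 1.01 (the second), and CDKN1A by -0.83. CDKN1A and TP53I3 were not called against vehicle in either week, and their differences rest on a 1-week vehicle group that holds the array standing apart. Without that array they were -0.64 for CDKN1A with 50 nM (limma adjusted p = 0.0721) and -0.92 for TP53I3 with 5 nM (adjusted p = 0.00202). The other differences use the same vehicle group, and the 50 nM calls of both PEG3 probe sets also ended without that array.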

How the results depend on the processing

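The 7 calls with 50 nM at 4 weeks were 7 without each array of 4w0nM and 4w50nM in turn, beside 30.1% to 39.6% of all probe sets. Arrays were left out only of the groups compared, and the filter was not applied again. The second PEG3 probe set reached 50 on 3 arrays, all of 4w50nM, so with 1 of these left out it would not pass. Its call in those fits thus rests on the filter of the full series. Leaving out 1 array gave 0 to 3 calls with 5 nM at 1 week, 1 to 4 with 50 nM at 1 week, 3 to 5 with 5 nM at 4 weeks, 0 to 1 between the vehicle groups, 4 to 7 for the 5 nM effect between weeks and 5 to 8 for the 50 nM effect. In the same order, 1.93% to 11.7%, 11.7% to 35.9%, 24.1% to 29.7%, 1.28% to 6.76%, 26.2% to 41.3% and 39% to 51% of all probe sets were called in these fits. The 3 calls with 5 nM and the 4 with 50 nM at 1 week came without 1w0nM replicate 3, beside 11.7% and 35.9%. The 3 with 5 nM at 4 weeks came without 4w0nM replicate 1, beside 24.9%. Array weights gave 1 call with 5 nM at 1 week, 9 with 5 nM at 4 weeks, 4 between the doses at 1 week and 1 between the vehicle groups, with 2.42%, 60.6%, 28.8% and 2.1% of all probe sets called under that setting. The fit of only the compared groups gave 0 with 50 nM at 1 week, 8 with 5 nM at 4 weeks and 2 between the doses at 1 week, beside 3.34%, 38.3% and 1.15%. The methods' t-test gave 0 with 50 nM at 1 week and 2 between the doses at 4 weeks, beside 0.0365% and 2.84%. For 50 nM at 1 week no filter and the brightest probe set of a gene gave 1 each, beside 14.6% and 20.1%. The brightest probe set of a gene gave 3 for the 5 nM effect between weeks, beside 32.7%. Omitting both 1w5nM replicate 2 and 1w50nM replicate 3 gave 5 for the 50 nM effect between weeks, beside 42.4%. The cause was not tested.

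Without single arrays, the log2 change of GADD45A with 5 nM at 1 week ran from -0.517 to 0.339, that of PERP from -0.339 to 1.14, and that of PERP with 50 nM from -1.24 to 0.245. The change of GADD45A with 5 nM at 1 week, not called, turned positive with array weights (0.147), without 1w0nM replicate 3 (0.339) and with the 4w0nM arrays as vehicle (0.0579), and that of PERP turned negative (-0.0569, -0.339 and -0.0803). PERP with 50 nM at 1 week turned to 0.245 without 1w0nM replicate 2, and DRAM1 to -0.227 with the 4w0nM arrays as vehicle. Of the other values for single members, 790 kept their direction and side of the threshold, 81 lost a call and 23 gained one. Calls among the 64 other pathway genes ranged from 0 to 8 and 0 to 16 at 1 week and from 12 to 34 and 18 to 37 at 4 weeks (5 nM and 50 nM). Same-numbered arrays deviated together with r from -0.255 to 0.357 over 7 pairs of groups, and not every pair was above 0.1, so the numbers were not taken to pair the arrays. A replicate block gave 7 calls for the 50 nM effect between weeks in place of 8 and the main counts elsewhere. Signals near the floor of 16 (MDM4, the second PEG3 probe set) limit what can be seen of a fall.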
